A study of Drosophila melanogaster with 12 samples.

Results

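This comparison sets heads of the aggressive II population of Drosophila melanogaster against heads of the neutral I population. It uses 6 of the 12 arrays of the study, namely the 3 titled for each of these populations, and every probe set that is not a control. Heads came from 5-day-old males of Canton-S, a standard wild-type laboratory strain, with no transgene or mutation named in the labels. Aggressive II had been selected for male aggression for 21 generations. Neutral I was bred over the same 21 generations from males drawn at random from those left in the cage after aggressive males had been taken out. By the study's own description this reference regime was meant to lower aggression and had no significant effect. The remaining 6 arrays, from aggressive I and neutral II, are replicate populations of the same regimes and are used here for the spread between arrays and as a comparison.

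RNA was made from heads of many males together. The males had been picked at random from culture bottles, frozen in groups of about 120 at the same time of the afternoon and stored in groups of about 40. How many heads went into an array is not given in the labels, and nothing there says if the 3 arrays of a population stem from separate cultures or from repeated runs of 1 pool. The p-values below therefore measure the spread between arrays, which may be technical. With 1 population on each side, the effect of selection and any other difference between these populations cannot be told apart. For 2 neutral I arrays the line is labelled only Canton-S, without the addition that it was selected.

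Signals are MAS5 intensities, the Affymetrix summary of the brightness of each probe set, on a linear scale and scaled to a common trimmed mean. Median signal per array lay between 999.8 and 1051 in these 6 arrays. Arrays of aggressive II correlated with each other at 0.962 to 0.963, arrays of neutral I at 0.954 to 0.970, and arrays across the pair at 0.947 to 0.966. The median signal, the 18S and spike-in signals and the 3′ to 5′ ratios of the actin and Gapdh controls gave exact permutation p-values of 0.2 or higher between the populations, two-sided, where 3 arrays against 3 cannot go below 0.1. Marker genes of neurons, photoreceptors, glia, fat body, muscle and hemocytes ranked high among all probe sets, with median percentiles of 81.5 to 99.1, and the medians for midgut, testis and accessory gland markers were 28.0, 41.8 and 7.90. The 7 markers of female flies had percentiles of 27.3 (Cp15) to 90.9 (Yp3), with a median of 52.6, and log2 differences between the populations of -0.28 (Yp2) to 0.69 (Cp36). Their summed signal was 16617 to 17848 in aggressive II and 16294 to 19069 in neutral I, which overlapped, and 3 of 7 were above 0. Of the 41 markers bright enough to test, none passed in limma (0.298% of all probe sets) and 3 had an unadjusted p under 0.05 (8.04%).

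The fly head holds the brain, the compound eyes, the antennae and mouthparts, and also fat body, a tissue that works as liver, fat store and immune organ at once. Odorant-binding proteins are small secreted carriers that fill the fluid of smell and taste hairs, and cytochrome P450s, glutathione S-transferases and esterases modify or clear small molecules, odorants and insecticides among them. In flies, male aggression depends on pheromone sensing, biogenic amines and neuropeptides of the brain, and Cyp6a20 is a P450 whose loss has been reported to raise male aggression.

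Of 8379 probe sets bright enough to test, 25 (0.298%) passed an adjusted p of 0.05, of which 9 were higher in aggressive II (0.107% of all tested) and 16 lower (0.191%). They were tested with limma on log2 signals, with Benjamini-Hochberg adjustment over all 8379. Of the 25, 23 carry a gene name, which is 0.335% of the 6871 genes tested. Differences of more than 2-fold were seen for 15 of them, 5 higher and 10 lower. All 25 had aggressive II arrays that did not overlap those of neutral I, as did 13.7% of all probe sets (7.17% higher, 6.53% lower). At an unadjusted p under 0.05 the share of all probe sets was 8.04%. The median size of a log2 difference over all probe sets was 0.14, with a median SE of 0.17, and the smallest difference that passed was 0.52. The genes that passed encode odorant-binding proteins, immune peptides, detoxifying enzymes, enzymes of sugar and lipid metabolism, and proteins for which no role is named here.

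**Figure D1:**
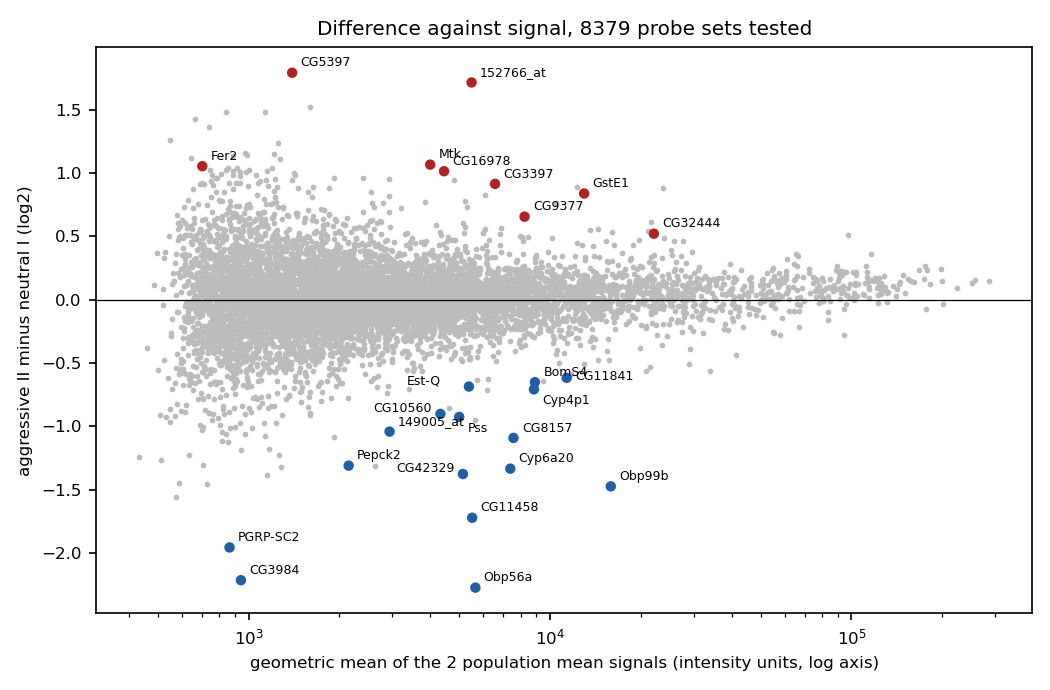
Log2 difference between aggressive II and neutral I, positive where aggressive II is higher (vertical axis), against the geometric mean of both population means in intensity units (horizontal log axis) for the 8379 probe sets tested, one dot each. Red and blue dots are the 9 higher and 16 lower probe sets that passed, named by gene, and several grey dots at low signal are as far from 0 as the coloured ones.

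The number that passed rested on single arrays and on the estimate of spread. It was 13 without neutral I array 1 and 15 without neutral I array 3, and 10 when only the 6 arrays of the pair were fitted. It was 43 when the probe sets below the 60th percentile were left out and 55 with a trended and robust variance. Obp56a, CG42329, CG11458, Obp99b, Pepck2, CG5397, Cyp6a20, PGRP-SC2 and the unnamed probe sets 152766_at and 149005_at passed under every alternative that kept them. PGRP-SC2 is too dim to be kept by the stricter filter.

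The largest fall was that of an odorant-binding protein. Of 17 such genes bright enough to test, Obp56a and Obp99b fell in aggressive II and none rose, where 0.218% of all genes fell and 0.116% rose. The median of the 17 was 0.054 on the log2 scale, against 0.011 over all genes, and 1 was higher and 4 lower at an unadjusted p under 0.05 (4.28% and 3.84% of all genes). Obp56a (CG11797, 2R), a carrier protein of chemosensory organs, had signals of 2539, 2639.6 and 2364 in arrays 1, 2 and 3 of aggressive II and of 13656, 13176 and 11288 in neutral I. All aggressive II arrays were low and close together, far under the lowest neutral I array. The level was 4.83 times higher in neutral I (log2 difference -2.27, SE 0.14, adjusted p = 3.14e-05, 95% interval -2.59 to -1.96). In whole heads, fewer cells of a type and less RNA per cell cannot be told apart, here and for the genes that follow.

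Obp99b (CG7592, 3R) was among the brighter genes, with signals of 8577, 9559 and 10244 in aggressive II and 25317, 27058 and 27805 in neutral I. The groups were far apart, and the level was 2.78 times higher in neutral I (log2 difference -1.47, SE 0.10, adjusted p = 3.14e-05). Both populations were below the others of the study for this gene, since aggressive I had 39524 ± 2176 and neutral II 74474 ± 3027 (SD, n = 3). Obp56e and Obp56d, which belong to the same family as Obp56a, had log2 differences of -0.46 (SE 0.16, adjusted p = 0.457) and -0.28 (SE 0.10, adjusted p = 0.503) and did not pass. Of the receptors that read odours and tastes, only 11 of 124 on the array were bright enough to test, and 0 had an adjusted or unadjusted p under 0.05.

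Immune genes went both ways. PGRP-SC2 (CG14745, 2R), an enzyme that breaks down bacterial peptidoglycan and so dampens immune signalling, had signals of 386, 398 and 418 in aggressive II and 2182, 1624 and 1786 in neutral I. All aggressive II arrays were low and close together, while the neutral I arrays were spread more widely and higher. The level was 3.88 times higher in neutral I (log2 difference -1.96, SE 0.23, adjusted p = 0.00307). It was the only one of 28 genes of immune recognition and signalling that passed (0.335% of all genes did), and the median of the list was -0.049.

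Among 13 antimicrobial and immune-induced peptides, 1 rose and 1 fell (0.116% and 0.218% of all genes), with a median of 0.057. At an unadjusted p under 0.05 in limma, 3 were higher and 2 lower (4.28% and 3.84% of all genes). Mtk (CG8175, 2R), the antimicrobial peptide metchnikowin, had signals of 6261, 5977 and 5193 in aggressive II against 2584, 2945 and 2741 in neutral I. No array of one population reached the other, and aggressive II was 2.09-fold above neutral I (log2 difference 1.07, SE 0.12, adjusted p = 0.00271). Neutral I stood below all other arrays of the study for Mtk, with aggressive I at 10648 ± 665 and neutral II at 6829.9 ± 632 (SD, n = 3).

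BomS4 (CG18107, 2R), a bomanin, one of the short secreted peptides made on Toll signalling, went the other way. Its signals were 6754, 6910.4 and 7478 in aggressive II and 11235, 10834 and 11712 in neutral I, without overlap. The level was 1.57 times higher in neutral I (log2 difference -0.65, SE 0.098, adjusted p = 0.0161). Drs, the antifungal peptide drosomycin, and the bomanin BomS2 had log2 differences of 0.53 (adjusted p = 0.203) and 0.45 (adjusted p = 0.437) and did not pass. Of 5 markers of hemocytes, the blood cells of the fly, 3 were above 0, and their summed signal was 15482 to 17707 in aggressive II and 13832 to 17897 in neutral I. For 5 markers of fat body, where much of this peptide response is made, the sums were 219740 to 248294 and 207505 to 244811, with 4 above 0. Both overlapped between the populations.

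Detoxifying enzymes passed as single genes of their families. Of 58 cytochrome P450s, 2 fell and none rose (0.218% and 0.116% of all genes), with a median of -0.029. In limma, 3 were higher and 4 lower at an unadjusted p under 0.05 (4.28% and 3.84% of all genes). Cyp6a20 (CG10245, 2R) had signals of 3882, 4685 and 5249 in aggressive II and 11880.1, 12293 and 11294 in neutral I. All aggressive II arrays were below all neutral I arrays and also below every array of aggressive I and neutral II. The level was 2.52 times higher in neutral I (log2 difference -1.33, SE 0.16, adjusted p = 0.00307, 95% interval -1.68 to -0.98), and the call held under every alternative tried, with an adjusted p of at most 0.0291.

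Cyp4p1 (2R) fell less, from 11458, 12303 and 10463 in neutral I to 6816, 7256 and 6482 in aggressive II. The arrays did not overlap, and the level was 1.63 times higher in neutral I (log2 difference -0.71, SE 0.12, adjusted p = 0.0295). Cyp6a8 and Cyp6t3, the next P450s by p, had log2 differences of -0.35 and -0.55 (adjusted p = 0.331 and 0.455) and did not pass.

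GstE1 (CG5164, 2R), a glutathione S-transferase, was the only one of 29 in its family that passed (0.335% of all genes did). Its signals were 18647, 17374 and 15778 in aggressive II and 9642, 10712 and 8882 in neutral I. Aggressive II was above every other array of the study, and 1.79-fold above neutral I (log2 difference 0.84, SE 0.12, adjusted p = 0.0142). Its relatives GstE7 and GstD3 did not pass, with log2 differences of 0.997 (SE 0.21, adjusted p = 0.101) and -0.69 (SE 0.16, adjusted p = 0.167), and the family median was 0.056. At an unadjusted p under 0.05 in limma, 6 of the 29 were higher and 3 lower (4.28% and 3.84% of all genes).

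Among 8 carboxylesterases, Est-Q (CG7529, 3L) fell and no member rose (0.218% and 0.116% of all genes). It had signals of 4175, 3958 and 4459.6 in aggressive II and 7233, 6658 and 6792 in neutral I, without overlap, a level 1.61 times higher in neutral I (log2 difference -0.69, SE 0.095, adjusted p = 0.00941). Its family member alpha-Est8 had a log2 difference of 0.82 (adjusted p = 0.0973) and did not pass. Of 14 UDP-glycosyltransferases, which attach sugars to small molecules, none passed, and the median was -0.12. In limma, 0 were higher and 1 was lower at an unadjusted p under 0.05 (4.28% and 3.84% of all genes).

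Enzymes of sugar and lipid metabolism followed as single genes too. Pepck2 (CG10924, 2R), a phosphoenolpyruvate carboxykinase of the route that makes new glucose, had signals of 1349.6, 1359.5 and 1266 in aggressive II and 3527, 3165 and 3739 in neutral I. The aggressive II arrays were tightly grouped and below all other arrays of the study. The level was 2.48 times higher in neutral I (log2 difference -1.31, SE 0.10, adjusted p = 0.000127).

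CG32444 (3L), listed with a synonym of aldose 1-epimerase, a sugar-converting enzyme, was higher in aggressive II, with signals of 25744, 26239.9 and 26938 against 20096, 17737 and 17869. The arrays did not overlap, the rise of 1.44-fold was the smallest that passed (log2 difference 0.52, SE 0.090, adjusted p = 0.0404), and it did not pass when any 1 of the 12 arrays was left out (adjusted p 0.0609 to 0.150). Treh, the trehalase that splits the blood sugar of insects, had a log2 difference of 0.46 (SE 0.093, adjusted p = 0.0853). Of 9 glycolysis genes, 0 had an adjusted or unadjusted p under 0.05.

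Pss (CG4825, 3L), phosphatidylserine synthase, which makes a membrane phospholipid, was the only one of 19 phospholipid synthesis genes that passed (0.335% of all genes did). Its signals were 3159, 4361 and 3255 in aggressive II and 6449.5, 6664 and 7718 in neutral I. The second aggressive II array was higher than the others but still below all of neutral I, and the level was 1.90 times higher in neutral I (log2 difference -0.93, SE 0.15, adjusted p = 0.0274). The median of the list was 0.0063.

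Other named genes were a transcription factor and genes listed as serine protease or protease homologue. Fer2 (CG5952, 3R), a basic helix-loop-helix factor needed for certain clock neurons, was dim, with signals of 1155, 1076 and 939.9 in aggressive II and 485, 469.6 and 443 in neutral I. Neutral I was below every other array, and aggressive II was 2.08-fold above neutral I (log2 difference 1.05, SE 0.16, adjusted p = 0.0192). Of 14 circadian clock genes, 0 had an adjusted or unadjusted p under 0.05, and 4 had all aggressive II arrays below neutral I and none above (6.35% and 7.18% of all genes).

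CG9377 (listed with the synonym SPH166) had signals of 10629, 10603 and 9639 in aggressive II and 6545, 6452 and 6736 in neutral I. It was 1.58-fold higher in aggressive II, which stood above all other arrays (log2 difference 0.66, SE 0.094, adjusted p = 0.0118). CG11841 (synonym SP45) was lower, at 9415, 8985 and 8887 against 13822, 14293 and 14419, and neutral I stood above all other arrays. Its level was 1.53 times higher in neutral I (log2 difference -0.62, SE 0.098, adjusted p = 0.0222).

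Genes for which no role is named here made up much of the rest, and the largest rise was among them. CG42329 (2L) had signals of 3228, 3072 and 3122 in aggressive II and 8508, 8523 and 8201 in neutral I. Both sets of arrays were tightly grouped and far apart, and the level was 2.60 times higher in neutral I (log2 difference -1.38, SE 0.091, adjusted p = 3.14e-05). A second probe set of this gene, 145569_at, had a log2 difference of -1.32 in the same direction with a wider error (SE 0.32, adjusted p = 0.195) and did not pass.

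CG5397 (2L), the next protein-coding gene to CG42329 in the RefSeq order, changed in the opposite direction. Its signals were 2293, 3023 and 2781 in aggressive II and 693, 805 and 662 in neutral I, without overlap. Aggressive II was 3.46-fold higher, the largest rise of the comparison (log2 difference 1.79, SE 0.16, adjusted p = 0.00027). The probe set 152766_at, which has no gene in the annotation table, was close behind with 10694, 8939.7 and 10265 against 2775, 3577 and 2720.1, a 3.28-fold rise (log2 difference 1.71, SE 0.15, adjusted p = 0.000296). No other called genes lay as close to each other on a chromosome. Of 1278 probe sets assigned to the X chromosome none passed, where 0.298% of all probe sets did. In limma, 71 of the 1278 had an unadjusted p under 0.05, against 8.04% of all probe sets.

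CG11458 fell from 10223, 9549 and 10766 in neutral I to 3208, 2658 and 3097 in aggressive II. Aggressive II was below all other arrays of the study, and the level was 3.30 times higher in neutral I (log2 difference -1.72, SE 0.12, adjusted p = 3.14e-05). CG8157 fell from 10577, 12447 and 10469.9 to 4709, 5612 and 5038, a level 2.13 times higher in neutral I (log2 difference -1.09, SE 0.11, adjusted p = 0.00101).

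The fall of CG3984 was large and uneven. Its signals were 175, 750.4 and 336 in aggressive II and 1717, 2719.8 and 1904 in neutral I. Aggressive II array 1 was the lowest and array 2 the highest of their group, and all were below neutral I. The level was 4.64 times higher in neutral I, with a wide error (log2 difference -2.21, SE 0.34, adjusted p = 0.0193, 95% interval -2.97 to -1.46). CG10560 had 3668, 2962 and 2764 in aggressive II against 6124, 5479 and 6329, a level 1.87 times higher in neutral I (log2 difference -0.90, SE 0.13, adjusted p = 0.00941), and the unnamed 149005_at had 1983, 2038 and 1992 against 4329, 3871 and 4683, 2.06 times higher (log2 difference -1.04, SE 0.12, adjusted p = 0.00244).

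CG16978 rose, with signals of 5963, 5586 and 7486 in aggressive II and 3456, 2891 and 3009.6 in neutral I. The arrays did not overlap, and aggressive II was 2.02-fold above neutral I (log2 difference 1.01, SE 0.13, adjusted p = 0.00441). CG3397 had 8973, 8554 and 9469 in aggressive II and 4497, 4936 and 4944 in neutral I, again without overlap, a 1.88-fold rise (log2 difference 0.91, SE 0.12, adjusted p = 0.00776).

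**Figure D2:**
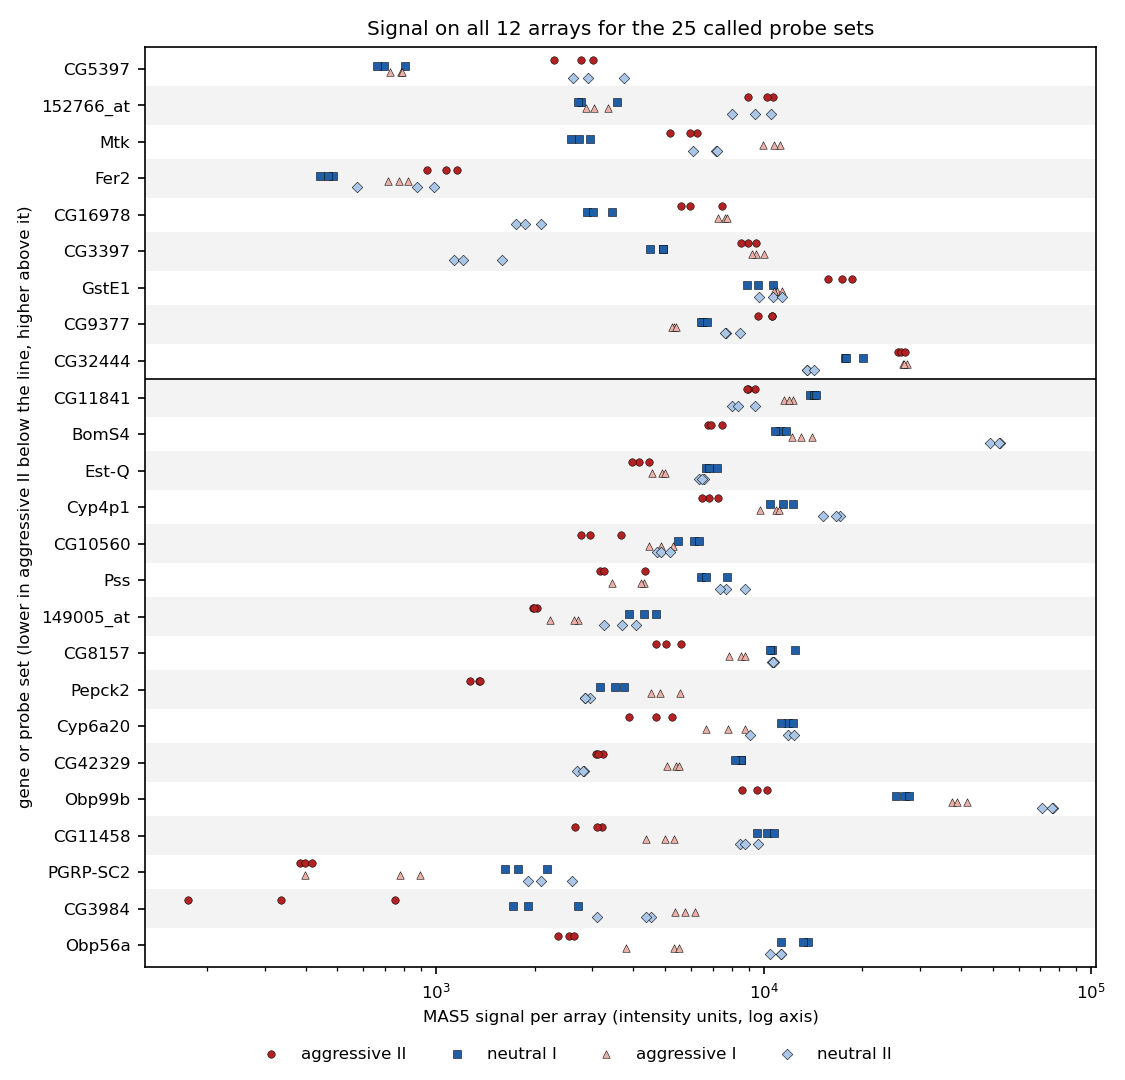
Signal on each array (intensity units, log axis) for the 25 probe sets that passed, ordered by log2 difference, with the 3 arrays of aggressive II and of neutral I and the arrays of aggressive I and neutral II in their own colours. In every one the aggressive II arrays lie wholly on one side of the neutral I arrays, while aggressive I and neutral II lie on either side of them or between.

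Several of these calls rested on single arrays of the pair. Leaving out 1 array at a time, 13 of the 25 passed in all 12 fits. CG3397 did not pass without neutral I array 1 (adjusted p = 0.0648), and Est-Q did not pass without that array or aggressive II array 2 (adjusted p 0.0510 to 0.0695). CG10560 did not pass without either of these or without neutral I array 3 (0.0510 to 0.0695). GstE1 did not pass without aggressive II array 1 or 2 or neutral I array 1 or 3 (0.0618 to 0.0736).

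CG9377, BomS4 and Fer2 did not pass without aggressive II array 1 or 2 or any neutral I array (highest adjusted p 0.0720, 0.0747 and 0.0931). CG3984 and Pss did not pass without aggressive II array 1 or 3 or any neutral I array (highest 0.0956 and 0.128). CG11841 did not pass without any 1 of the 6 arrays of the pair or neutral II array 2 (highest 0.0995), and Cyp4p1 passed in only 2 of the 12 fits, those without aggressive I array 2 or neutral II array 1 (adjusted p up to 0.125 in the others). CG32444 passed in none.

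The pair of aggressive I and neutral II gives a comparison of the same regimes that shares no array with this one. There, 98 of 8379 probe sets passed (1.17%), 50 higher (0.597%) and 48 lower (0.573%) in aggressive I. Of the 25 of this pair, 11 passed there in the same direction, 6 passed in the opposite direction and 8 did not pass. By sign alone, 16 went the same way and 9 the opposite way. With 1 array left out, the count of 11 was retaken among the probe sets of this pair called in that fit. Those numbered 13 to 28 and were not the same 25. The count was then 6 to 9. Without neutral I array 1 it was 6. It was 7 without aggressive I array 1 or aggressive II array 1 or 2. It was also 7 without neutral I array 2 or 3 or neutral II array 1 or 2.

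Among the 11 that passed in the same direction, each aggressive population was compared with the neutral population of its pair only. Obp56a, CG11458, Obp99b, PGRP-SC2, BomS4, Pss and Cyp4p1 were lower in both pairs, and Mtk, CG16978, CG3397 and CG32444 were higher. For Obp99b, BomS4, Cyp4p1 and Mtk the 6 aggressive arrays did not lie wholly on one side of the 6 neutral arrays. Obp99b had a mean of 39524 in aggressive I, above the 26726.5 of neutral I. Mtk had 5810.5 in aggressive II, below the 6829.9 of neutral II. In aggressive I against neutral II, Obp56a had a log2 difference of -1.15 (adjusted p = 0.00445) and PGRP-SC2 of -1.58 (adjusted p = 0.00894). CG16978 and CG3397 had log2 differences of 1.96 and 2.81 there, against 1.01 and 0.91 in this pair. The signal of CG3397 was similar in the aggressive populations, 8999 ± 458 in II and 9586 ± 392 in I, and differed in the neutral ones, 4792 ± 256 in I and 1311 ± 244 in II (SD, n = 3). BomS4 stood at 51310.2 ± 2056 in neutral II, far above the 11260.4 ± 439.7 of neutral I, with 13084 ± 893 in aggressive I and 7048 ± 381 in aggressive II.

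**Figure D3:**
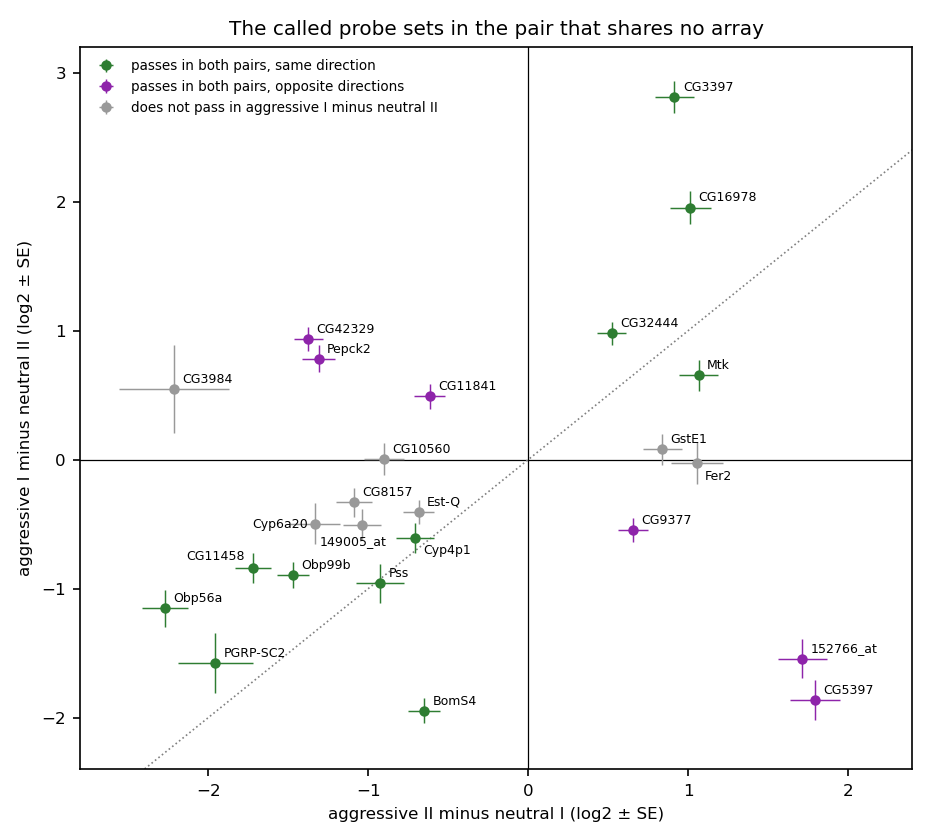
Log2 difference of aggressive I minus neutral II (vertical axis) against that of aggressive II minus neutral I (horizontal axis) for the 25 probe sets that passed in the latter, with bars of 1 SE and a dotted line of equal values. The 11 that passed in both in the same direction are green, the 6 that passed in opposite directions purple and the 8 that did not pass in aggressive I minus neutral II grey.

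Cyp6a20 was among the 8 that did not pass in the other pair. Its log2 difference there was -0.50 (SE 0.16, adjusted p = 0.209), and the means were 7727 ± 1055 in aggressive I and 11096 ± 1779 in neutral II (SD, n = 3). Between the pairs the difference was -0.84 (SE 0.22, adjusted p = 0.221), so that the pairs were not shown to differ for this gene. The others were CG8157, Est-Q, CG10560, GstE1, Fer2, CG3984 and 149005_at. GstE1 had a log2 difference of 0.078 there and CG10560 of 0.0023.

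The 6 that passed in opposite directions were CG42329, Pepck2 and CG11841, lower in aggressive II and higher in aggressive I than in the neutral population of their pair, and CG5397, CG9377 and 152766_at, the reverse. CG5397 had means of 2699 ± 372 in aggressive II and 3095 ± 578 in neutral II, against 720.0 ± 75.5 in neutral I and 764 ± 35.1 in aggressive I (SD, n = 3). The probe set 152766_at followed the same order of populations, with 9966 ± 914 and 9326 ± 1278 against 3024 ± 479.6 and 3085 ± 238. CG42329 was highest in neutral I, 8410.5 ± 182, then aggressive I, 5333 ± 245, and lowest in aggressive II and neutral II, 3141 ± 79.8 and 2775 ± 66.4. Pepck2 was highest in aggressive I, 4984 ± 531, and was 3477 ± 290.5 in neutral I, 2884 ± 57.8 in neutral II and 1325 ± 51.2 in aggressive II.

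**Figure D4:**
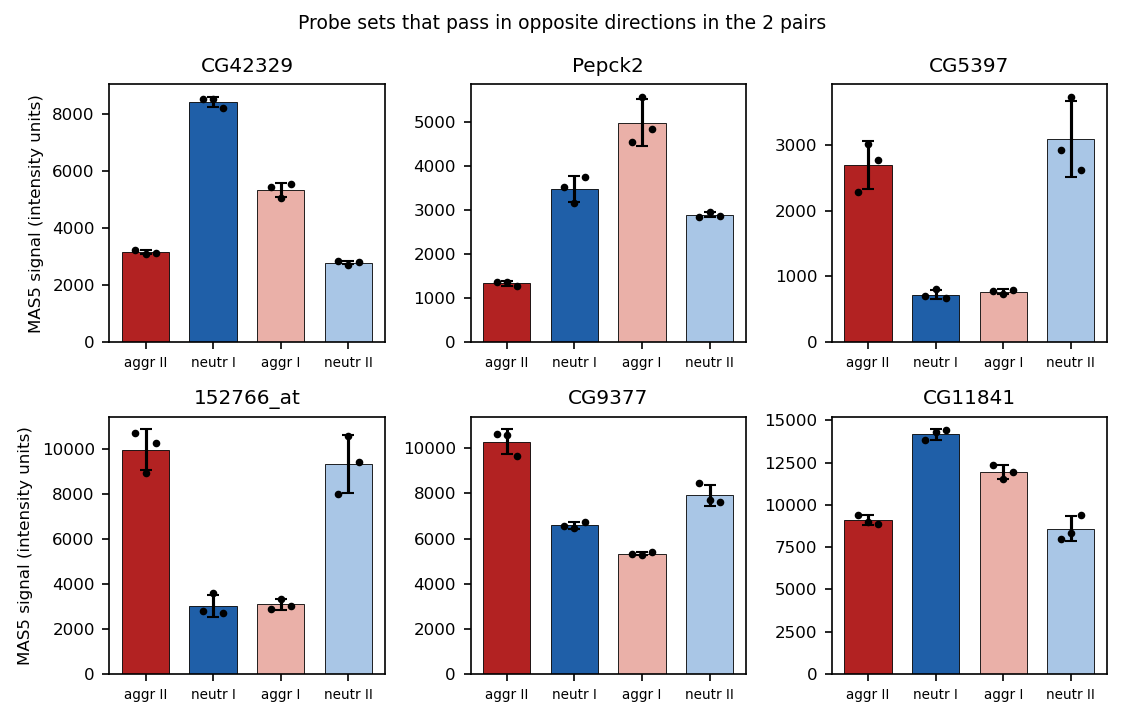
Signal (intensity units, axis from 0) in the 4 populations for the 6 probe sets that passed in opposite directions in the 2 pairs. Bars are means with SD over 3 arrays and dots are arrays, and CG5397 and 152766_at are high in aggressive II and neutral II and low in neutral I and aggressive I.

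The difference between the pairs was itself tested, as the log2 difference in this pair less that in the pair of aggressive I and neutral II. It passed for 25 of 8379 probe sets (0.298%), 9 higher and 16 lower, and for 22 of these the pairs had opposite signs. Of the 25 called in this pair, 9 passed the test. CG5397 differed between the pairs by 3.65 (adjusted p = 1.82e-05) and CG42329 by -2.31 (adjusted p = 1.65e-05). For Obp56a the test gave -1.12 (adjusted p = 0.0532) and did not pass. The count was 13 to 20 with 1 array left out, namely 13 without neutral II array 2 or 3, 14 without neutral I array 1, 15 without aggressive I array 2 and 16 without aggressive I array 3 or aggressive II array 2.

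Which of the populations stood apart was read from the replicate populations, whose comparisons share arrays with this pair. The 25 were picked for a difference between aggressive II and neutral I, which by itself raises the counts below. The shares of all probe sets in brackets are therefore no measure of an excess. Aggressive II differed from aggressive I for 14 of the 25 (0.585% of all probe sets passed) and neutral I from neutral II for 8 (0.274%), with 6 in both and 9 in neither. Retaken among the probe sets called in the fit, the 14 became 9 without aggressive II array 1 or any 1 neutral I array. In the same way the 8 became 5 without neutral I array 1. Aggressive II lay below all of the other 9 arrays for 12 of the 25 (1.29% of all probe sets) and above them for 2 (0.812%), CG9377 and GstE1. Neutral I lay above the other 9 for 3 (0.394%) and below for 2 (1.10%). The 6 aggressive arrays lay wholly on one side of the 6 neutral arrays for 11 (1.22%). These included Cyp6a20, Est-Q, CG8157 and 149005_at, which did not pass in the other pair.

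Gene lists for processes of the head gave few calls. Of 41 lists, 39 had 5 or more genes tested, and 7 held the 10 list members that passed, all described above. No gene passed in the lists for photoreceptor signalling, eye pigments, neuropeptides, biogenic amines, GABA, glutamate and acetylcholine signalling, synaptic vesicle release or potassium channels. These 7 lists held, in that order, 20, 15, 23, 19, 28, 17 and 19 genes tested. In limma they had, in the same order, 2, 0, 2, 0, 1, 1 and 1 genes higher at an unadjusted p under 0.05. Lower at that p were 0, 3, 1, 1, 3, 0 and 1, where 4.28% of all genes were higher and 3.84% lower. Over all genes, 7.18% had all aggressive II arrays above neutral I and 6.35% had them all below. In phototransduction, 3 of 20 genes had all aggressive II arrays above neutral I and none below. The gene trpl, a channel of photoreceptor signalling, had a log2 difference of 0.47 (SE 0.086, adjusted p = 0.064). Of 23 neuropeptide genes, 2 were wholly above and 1 wholly below, and of 19 genes of biogenic amines 2 and 3, among them Tbh, which makes octopamine, at -0.45 on the log2 scale (SE 0.19, adjusted p = 0.576).

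No muscle gene passed. Of 18 contractile genes, 13 had a log2 difference above 0, where 3571 of all 6871 genes did. The median was 0.11, against 0.011 over all genes. In limma, 4 were higher and 1 lower at an unadjusted p under 0.05 (4.28% and 3.84% of all genes). The arrays of aggressive II lay wholly above those of neutral I for 5 and wholly below for 1 (7.18% and 6.35% of all genes). Mlc1, the myosin alkali light chain, had signals of 13918, 14644 and 14272 in aggressive II and 10308, 11106 and 10378 in neutral I. Those arrays did not overlap, and the log2 difference was 0.45 (SE 0.090, adjusted p = 0.0889). TpnC41C, a troponin C, had a log2 difference of 0.61 (adjusted p = 0.0925). The summed signal of the muscle markers was 77623 to 80221 in aggressive II and 68487 to 70599 in neutral I, without overlap, with 4 of 5 markers above 0. Mlc1 is itself among these markers, and most of the sum is Mlc2 (means of 53398 and 48350) and Mlc1. The markers up and sls had log2 differences of 0.021 and 0.12, and Act88F, too dim to test, of -0.86. The part of muscle content in these differences was not tested.

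Genes of chaperones, oxidative phosphorylation and ribosomes did not pass either. Of 12 heat shock proteins and chaperones, 1 was above 0, where 3571 of all 6871 genes were, and the median was -0.16. In limma, 0 were higher and 3 lower at an unadjusted p under 0.05 (4.28% and 3.84% of all genes). Hsp27 had a log2 difference of -0.59 (adjusted p = 0.527). Of 57 oxidative phosphorylation genes, 49 were above 0 and the median was 0.093. Among them 4 were higher and 0 lower at an unadjusted p under 0.05 (4.28% and 3.84% of all genes). Of 27 cytosolic ribosomal proteins 25 were above 0, with a median of 0.086 and 0 at an unadjusted p under 0.05, but after quantile normalization 14 were, with a median of 0.0021, while for oxidative phosphorylation 44 were and for chaperones 1.

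**Figure D5:**
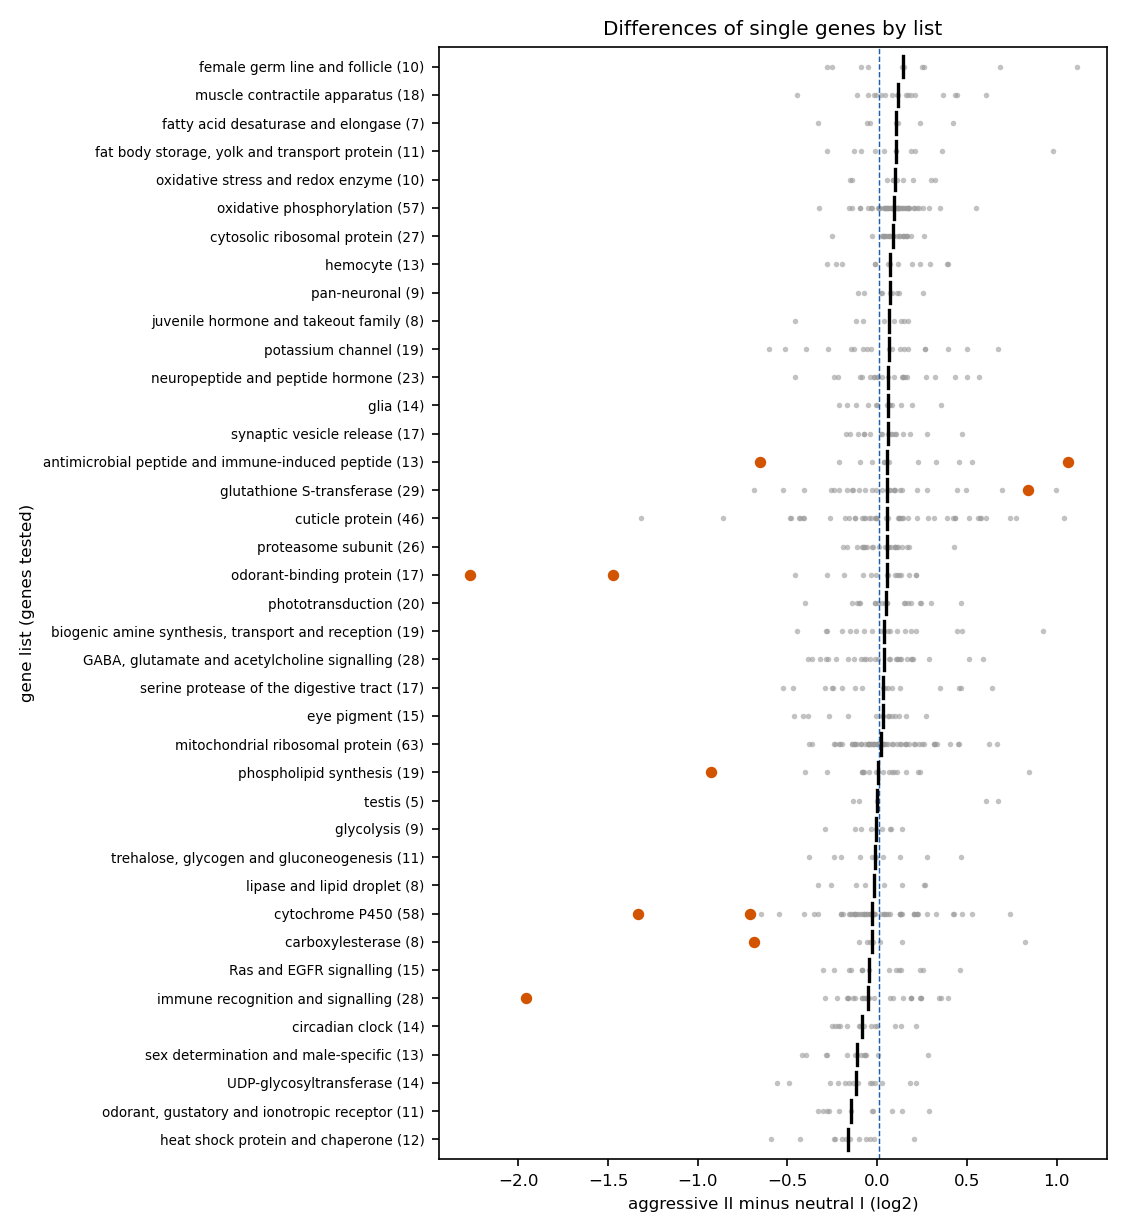
Log2 difference between aggressive II and neutral I, positive where aggressive II is higher, for each gene of the 39 lists with 5 or more genes tested, one row of dots per list, with a black bar at the list's median and a dashed line at the median of all genes, 0.011. Orange dots are genes that passed, and the medians of most lists lie close to the dashed line.

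The genes next in order of p did not pass. On the higher side they included trpl, CG13428, Cpr72Ec, CG17224 and fray, and on the lower side CG13794 (log2 difference -0.63, adjusted p = 0.0565), CG11741, Erasp, Akt, DCTN3-p24 and Trp1. Akt, a kinase of insulin signalling, had 833, 1278 and 1338 in aggressive II and 1881, 2388 and 2402 in neutral I, a log2 difference of -0.90 (SE 0.17, adjusted p = 0.0695). The arrays of the populations did not overlap for Akt.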

How the data were processed

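The deposited values are probe set intensities made by MAS5, per the submitters' processing notes, whose version is not given in the sources used here. The values show that arrays were scaled to 1 trimmed mean (2% off each end, 2500.43 to 2500.48), which removes differences in total RNA. Of 14010 probe sets, 44 are controls. Of the other 13966, 12443 have 1 gene in the platform annotation, 327 have several and 1196 have none, and the latter kinds were not named. Through Entrez identifiers 12394 matched the RefSeq table (Release 6 plus ISO1 MT), which altered 0 symbols. Chromosome arms and gene order are from RefSeq, and no coordinates are given, as the deposited table states no build.

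The log2 of intensity + 94.6 (their 10th percentile over all arrays) was taken and each array's median subtracted. Folds and log2 differences are on that scale and are too small for dim probe sets, while printed signals are intensities as deposited. Tests kept 8379 probe sets, those whose mean exceeded the 40th percentile. limma 3.58.1 in R 4.3.3 (lmFit, eBayes) fitted the means of the 4 populations over all 12 arrays (residual degrees of freedom 8, prior 2.92). The gene counts in lists use the brightest probe set of each of 6871 genes. No 2 arrays held identical values. The script was tested on simulated data. The number of arrays limits the precision.

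The members and gene lists were chosen with earlier results of these data known, and Cp190 and Acp65Aa were taken out of 2 lists after their values were seen. Named genes are all that passed, Cyp6a20, up to 4 per list by smallest p, the 6 next by p in each direction and the 5 largest differences between the pairs in each direction, of which 1 gene is not reported here. The female markers Cp15, Yp2, Yp3 and Cp36 were named after their values were seen.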

Additional observations from a re-analysis of the deposited data

Results flagged for a closer look

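For 16 of the genes and probe sets named, the log2 difference between aggressive II and neutral I was not that between aggressive I and neutral II, by a test of the difference itself (limma, adjusted over 8379 probe sets). The values that follow are the difference between the pairs, first pair less second. The 6 probe sets that passed in both pairs in opposite directions were CG5397 at 3.65 (SE 0.22), 152766_at at 3.26 (SE 0.22), CG9377 at 1.20 (SE 0.13), CG42329 at -2.31 (SE 0.13), Pepck2 at -2.09 (SE 0.15) and CG11841 at -1.11 (SE 0.14).

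CG3397 and BomS4 changed in the same direction in both pairs and by more in aggressive I against neutral II, with differences of -1.90 (SE 0.17, adjusted p = 5.18e-04) and 1.30 (SE 0.14, adjusted p = 0.00199). CG3984 differed by -2.76 (SE 0.48, adjusted p = 0.0476), with log2 differences of -2.21 in this pair and 0.55 in the other.

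The remaining 7 had not passed in aggressive II against neutral I. Obp83b, an odorant-binding protein of the antenna, differed by 2.19 (SE 0.24, adjusted p = 0.00199), with log2 differences of 0.18 in this pair and -2.01 in the other. Its aggressive I signals of 204.6, 132 and 116.1 were not far above the 94.6 added before the log2, which limits this value. Sos, an activator of Ras, differed by 1.25 (SE 0.21, adjusted p = 0.0454), with 0.065 and -1.19. CG34205 differed by 2.49 (SE 0.36), CG13794 by -1.23 (SE 0.16) and RNaseX25, a secreted ribonuclease, by -2.06 (SE 0.35). The omega glutathione S-transferases se, which makes a red eye pigment precursor, and GstO3 differed by -1.13 (SE 0.17, adjusted p = 0.0208) and -1.38 (SE 0.21, adjusted p = 0.0246), and both were lower in aggressive II than neutral I and higher in aggressive I than neutral II.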

How the results depend on the processing

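Each result was recomputed under 22 alternatives, of which 1 was chosen after seeing the data. It drops array 2 of aggressive I with array 3 of neutral I, whose mean correlations with the other arrays were the lowest. The count of 25 was 43 with the filter at the 60th percentile (20 higher, 23 lower), 10 with only the 6 arrays (2 and 8), 55 under a robust variance with a trend (29 and 26), 15 without both arrays (3 and 12), and 13 to 28 with 1 array left out. The 25 that differed between the pairs became 39 after quantile normalization and 53, 69 and 12 with the stricter filter, the trended variance and without both arrays (13 to 20 with 1 left out). The counts that follow were taken among the probe sets called in each alternative, not among the same 25. The 11 that passed in the other pair became 7 with no filter, 17, 21 and 4 (6 to 9). The 14 with aggressive II apart from aggressive I became 8 with no filter, 22, 24 and 6 (9 to 15), and the 8 with neutral I apart from neutral II became 16 with the trended variance and 5 without both arrays (5 to 8).

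Of the 98 named genes recomputed, Sos alone changed sign, from 0.065 to -0.076 without aggressive II array 1 and -0.0054 without neutral I array 1. Its highest value with 1 array left out was 0.21. The 98 were mostly picked for a small p in this pair, and list genes whose unadjusted p in limma was not under 0.05 were left out. That choice by itself makes changes of sign rare, so their number does not measure how stable the signs are. Of 2138 recomputed values of named genes, 1991 kept their side of the threshold, 106 lost it and 39 gained it. CG13794 passed under 6 of the alternatives. Centring left the median of all probe sets at 0.010, against -0.0080 without it and -0.0023 after quantile normalization.

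Equal replicate numbers did not pair the arrays. Deviations of arrays with the same number correlated at -0.052, 0.041 and 0.028 between aggressive II and neutral I, and 5 of 12 arrays correlated best with their own number. With the replicate block 23 probe sets passed, 9 higher and 14 lower, of which 22 were among the 25, and the other 4 counts, in the order above, were 19, 9, 12 and 8. The cause of these changes was not tested. Signals near background limit dim genes such as PGRP-SC2 and Fer2, which the stricter filter leaves out, and MAS5 detection calls were not used here.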

Other observations

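Other gene groups of the head gave values without a call. Of 46 cuticle protein genes none passed in limma, and the median was 0.056. Among them 6 were higher and 4 lower at an unadjusted p under 0.05 (4.28% and 3.84% of all genes). Cpr72Ec stood at 0.51 on the log2 scale (SE 0.099, adjusted p = 0.0706) and Cpr11B at -0.49 (SE 0.11, adjusted p = 0.125). Of 63 mitochondrial ribosomal proteins 4 were higher and 0 lower at an unadjusted p under 0.05 (4.28% and 3.84% of all genes). They were led by mRpS34 at 0.45 (SE 0.12, adjusted p = 0.227), and the list median was 0.019. Of 13 genes of sex determination and male-specific function, 2 were above 0, where 3571 of all 6871 genes were. The median was -0.11, and 0 had an unadjusted p under 0.05.

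Genes of the transmitters of the brain were mixed. nAChRbeta3, a subunit of the acetylcholine receptor, was at 0.59 on the log2 scale (SE 0.16, adjusted p = 0.26), and Nmdar1, a glutamate receptor, VGAT, the vesicular GABA transporter, and Gad1, which makes GABA, had log2 differences of -0.38, -0.36 and -0.32 (adjusted p = 0.371, 0.52 and 0.541). Among neuropeptides, Capa had a log2 difference of 0.43 and Dh44, a diuretic hormone, -0.46 (adjusted p = 0.345 and 0.436). The eye colour genes bw and car had log2 differences of -0.47 and -0.39 (adjusted p = 0.465 and 0.595). Of 15 eye pigment genes, 3 had all aggressive II arrays below neutral I and none above (6.35% and 7.18% of all genes).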
